A study of Salmo salar with 64 samples.

Results

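The ovary of female Atlantic salmon was compared between T3, sampled well into a long-day photoperiod, and T1, before the long-day signal was given. All columns of the gene count table that belong to ovary at these time points were used, which makes 8 of the 64 libraries of the series, and every one of the 81574 gene rows entered. The fish were female brood stock about 3 years after fertilisation that had been kept in tanks as 1 group, with no strain or genotype named. Ovary at T3 (n = 4 fish) was the group exposed to long days, ovary at T1 (n = 4 fish) the control, and T2 and T4 are ovaries sampled 2 weeks before and 2 weeks after T3. Messenger RNA was sequenced from whole ovary, and brain, pituitary and liver were taken at the same time points. The control is an earlier date and not a parallel group held on short days, so the light regime, the season and the age of the fish cannot be told apart.

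A salmon ovary holds oocytes, each wrapped in granulosa cells and, outside a basement membrane, in theca cells, and between the follicles lie stroma, vessels and resident leukocytes. Follicle-stimulating and luteinizing hormone from the pituitary act on the follicle layers, which make androgens and oestrogens from cholesterol, and oestrogen drives the liver to make yolk proteins that the oocyte takes up. As follicles grow, their somatic layers multiply and their matrix is rebuilt, a process that uses collagens, basement membrane glycoproteins and metalloproteases. Growing oocytes also store messenger RNA for the embryo.

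Among the genes past both thresholds nearly all were higher at T3. Of 31061 genes tested, 1090 (3.51%) were higher and 31 (0.0998%) lower at T3 than at T1, at an edgeR adjusted p below 0.05 and a log2 fold change beyond 1 in either direction. The higher genes had a median log2 fold change of 1.49 (range 1.00 to 7.13), and 181 of them exceeded 2. By adjusted p alone, with no limit on the fold change, 1444 genes were higher and 321 lower. Every gene list followed here that held a riser had a larger share of risers than all genes tested, so it singles out none. Risers were 12 of 23 collagens, 7 of 26 matrix proteases and inhibitors and 4 of 12 antigen presentation genes. Among cell markers they were 4 of 7 stromal, 4 of 15 leukocyte and 4 of 13 endothelial genes. Complement also had 4 risers in 16 genes, but its median log2 fold change was 0.13 and only 8 members were above 0. The members of these lists are a small part of the 1090, and the lists were chosen with earlier results of these data known. No listed gene of the oocyte, of the cell cycle or of the respiratory chain passed both thresholds. The median log2 fold change of all genes tested was 0.01. Because these are bulk libraries, fewer or more cells of a type and less or more RNA per cell cannot be told apart. The p-values rest on the spread between 4 fish per time point.

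The 8 libraries held 24.3 to 25.7 M counts at T3 and 25.4 to 30.6 M counts at T1. All 29 oocyte genes listed for this tissue were measured, with gdf9 at 182 to 221 CPM (counts per M of the TMM-scaled total) in T3 libraries and 202 to 222 CPM in T1 libraries. On the first principal component of the 16 ovary libraries, which took 35.3% of the variance, T3 replicates 1, 2 and 3 stood at 44, 53 and 29, T3 replicate 4 at -36, and the T1 libraries between -97 and -55. T3 replicate 4 thus lay nearest to T1. It was the lowest of the 4 T3 libraries in 884 of the 1090 higher genes (81.1%), against 29.8% of all genes tested. T3 replicate 2 was the highest in 597 of them.

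The number of calls depended on every single library. Without T3 replicate 4 the count of called genes was 2380, of which 2317 (7.3%) were higher, and 1099 of the 1121 genes called with all libraries were among them. The counts were 28, 45 and 16 without T3 replicates 1, 2 and 3, and 1, 7, 11 and 13 without T1 replicates 1, 2, 3 and 4. All 1121 genes kept their sign in each of these 8 fits. The median of the 1090 higher genes stayed between 1.36 and 1.63, and 938 to 1083 of them stayed above a log2 fold change of 1. These genes were chosen on the same 8 libraries, so a kept sign was nearly fixed in advance and is no separate support. The lowest adjusted p with all libraries was 0.00457. The T3 and T1 libraries did not overlap in 1005 of the 1090 higher and 30 of the 31 lower genes. Over all genes tested, 2810 (9.05%) had all T3 libraries above all T1 libraries and 2723 (8.77%) had them below.

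**Figure D1:**
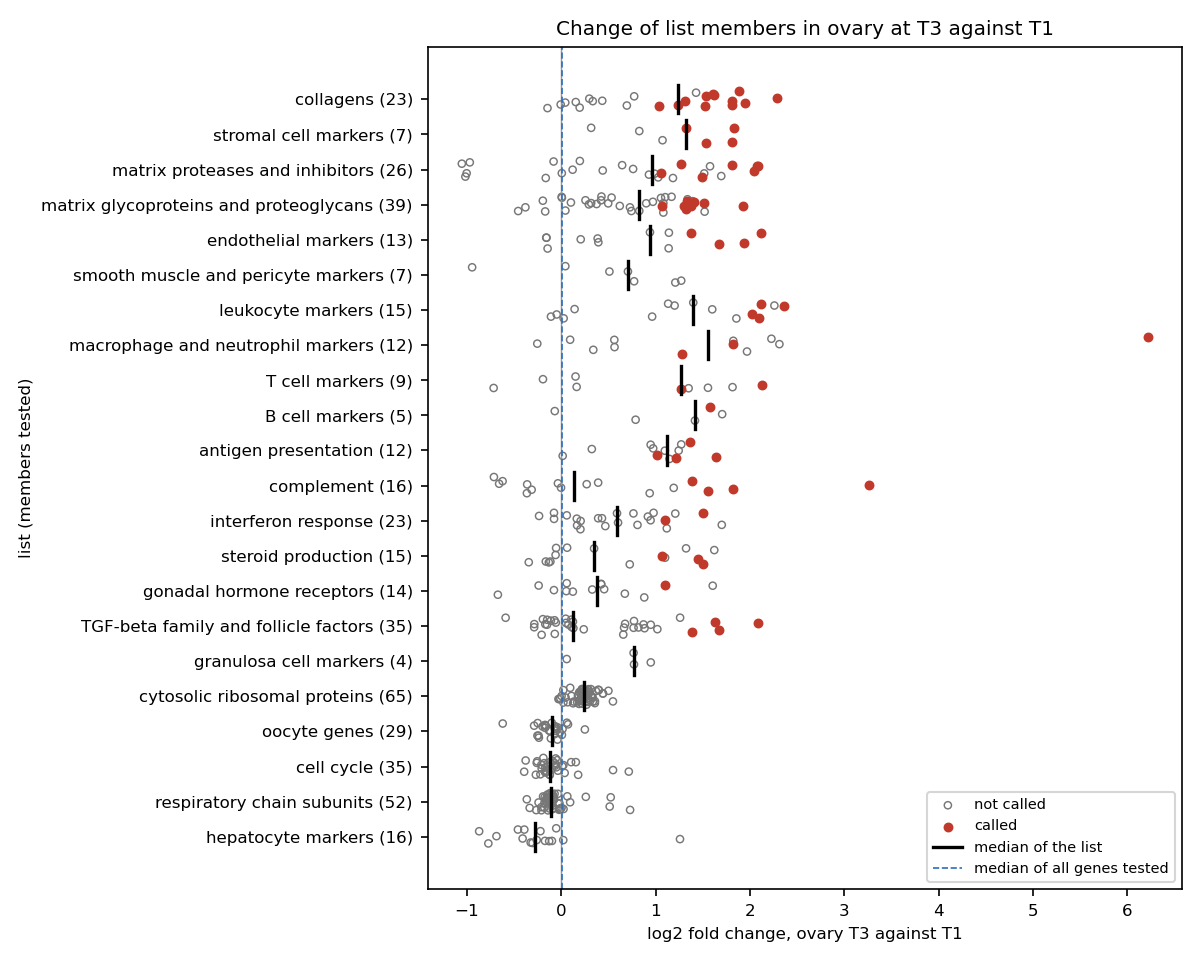
Log2 fold change in ovary at T3 against T1 (horizontal axis) of the tested members of 22 gene lists (rows, number of members tested in parentheses). Filled points passed the test, open points did not, black bars are list medians and the dashed line is the median of all genes tested (0.01). Matrix, stromal, leukocyte and antigen presentation lists lie to the right, with medians of 0.83 to 1.55, and the medians of oocyte, cell cycle and respiratory chain genes lie at -0.10 to -0.12.

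The collagens, the fibrous and sheet-forming proteins of the extracellular matrix, were the list with the most calls. Of 23 collagen genes tested, 12 rose and none fell, with a median log2 fold change of 1.24. Over all genes tested 3.51% rose, the share to set beside the calls of each list below. They included chains of the fibril-forming types I and V, of the basement membrane type IV, of the microfibrillar type VI and of the anchoring type VII. Their summed level was 2653, 4333, 2366 and 1405 CPM in T3 replicates 1 to 4, against 839.5, 1039, 1021 and 1131 CPM in T1 replicates 1 to 4. All T3 libraries lay above all T1 libraries, and T3 replicate 4 was the nearest to them.

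col4a1, a core chain of basement membranes, had 15.5, 20.1, 11.6 and 7.42 CPM in T3 libraries, against 2.33, 3.21, 2.86 and 3.02 CPM in T1 libraries. Every T3 library was well above the highest T1 library, and the log2 fold change was 2.29 ± 0.30 (SE, n = 4 each; edgeR adjusted p 0.0228). col1a1a, a gene for the main chain of type I collagen, had 666, 1298, 607 and 281 CPM at T3 and 163, 227, 216 and 232 CPM at T1 (log2 fold change 1.81 ± 0.39, adjusted p 0.0367). Its copy col1a1b had 1231, 2134, 1082 and 670.0 CPM at T3 and 367, 466, 450.2 and 525 CPM at T1 (1.54 ± 0.31, adjusted p 0.0342). In both copies T3 replicate 2 was the highest library and T3 replicate 4 was the nearest to the T1 range. col5a2a, a chain of the type V collagen that sets fibril diameter, had 55.4, 60.3, 46.3 and 22.5 CPM at T3 and 12.7, 12.5, 13 and 15.6 CPM at T1 (1.81 ± 0.27, adjusted p 0.029). LOC106581666, annotated as a collagen alpha-3(VI) chain, had 232, 298, 228 and 112 CPM at T3 and 66.5, 72.9, 77.4 and 92 CPM at T1 (1.53 ± 0.26, adjusted p 0.0292). LOC106565565, annotated as a collagen alpha-1(VII) chain, had 4.2, 5.86, 5.43 and 2.78 CPM at T3 and 0.981, 1.29, 1.27 and 1.29 CPM at T1 (1.95 ± 0.27, adjusted p 0.0282). All 6 genes were higher in 4 of 4 T3 libraries. Only reads unique to 1 gene were counted, so the levels of these and other genes with a near-identical copy in the salmon genome are uncertain to that extent.

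Of 39 matrix glycoproteins and proteoglycans tested, 8 rose and none fell (median 0.83), and 35 of the 39 had a positive log2 fold change. The summed level was 1830.1, 2994, 1871 and 1072 CPM in T3 libraries and 792, 988, 817 and 1026 CPM in T1 libraries. hspg2, the basement membrane proteoglycan perlecan, had 18.2, 22.7, 17.6 and 14.9 CPM at T3 and 7.07, 6.45, 6.29 and 8.98 CPM at T1 (log2 fold change 1.38 ± 0.18, adjusted p 0.0228), with no overlap of the groups. LOC106573567, annotated as fibrillin-2-like, a microfibril protein, had 8.61, 9.73, 8.01 and 4.79 CPM at T3 and 1.89, 2.55, 1.35 and 2.59 CPM at T1 (1.92 ± 0.29, adjusted p 0.029). thbs2a, a thrombospondin that binds matrix and growth factors, had 8.2, 12.4, 13.7 and 8.0 CPM at T3 and 2.23, 3.98, 4.89 and 4.1 CPM at T1 (1.51 ± 0.28, adjusted p 0.0307). None of these 3 genes overlapped between the groups, and T3 replicate 4 was the lowest T3 library in each. vcanb, the versican proteoglycan of provisional matrix, passed with a smaller difference, at 16, 21.8, 15.9 and 11.9 CPM in T3 libraries and 7.58, 9.59, 8.23 and 6.68 CPM in T1 libraries (1.07 ± 0.20, adjusted p 0.0314). fn1a, a fibronectin gene, had 49.8, 46.4, 30.9 and 23.1 CPM at T3 and 25.4, 18.2, 25.5 and 22.7 CPM at T1 and did not pass (0.74 ± 0.24, adjusted p 0.0881), with T3 replicate 4 inside the T1 range.

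Of the 6 named genes of smallest p, 3 encode proteins of or around the matrix. LOC106565061, annotated as dystroglycan-like, a receptor that ties cells to laminin and perlecan, had 43.5, 45.7, 36.8 and 33.1 CPM in T3 libraries and 12.5, 14.4, 16.4 and 13.5 CPM in T1 libraries (log2 fold change 1.52 ± 0.14, adjusted p 0.0121). The 4 T3 libraries were close together and far above T1, and the call was kept in 7 of the 8 fits without 1 library. LOC106610765, the peroxidasin homolog, an enzyme that crosslinks type IV collagen, had 10.7, 11.5, 10.9 and 9.9 CPM at T3 and 2.91, 4.19, 3.82 and 5.07 CPM at T1 (1.46 ± 0.18, adjusted p 0.0228). Here T3 replicate 4 was nearly level with the other T3 libraries. frem1a, a matrix protein of epithelial basement membranes, had 16.8, 25.2, 17.3 and 15.4 CPM at T3 and 5.75, 5.86, 5.77 and 7.44 CPM at T1 (1.62 ± 0.19, adjusted p 0.0193). The calls of peroxidasin and frem1a were kept in 3 and 4 of the 8 fits.

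Some proteases that cut the matrix rose as well. Of 26 metalloproteases, ADAMTS proteases and their inhibitors tested, 7 rose and none fell (median 0.96). Their summed level was 580.4, 602, 577 and 327 CPM in T3 libraries and 323, 364, 298 and 341 CPM in T1 libraries, so that T3 replicate 4 lay inside the T1 range. mmp9, a gelatinase made in quantity by leukocytes, had 195, 125, 224 and 57.9 CPM at T3 and 33.4, 37.3, 32.6 and 43.5 CPM at T1 (log2 fold change 2.07 ± 0.36, adjusted p 0.0292). mmp14b, a membrane-bound collagenase, had 10.5, 10.2, 10.4 and 4.1 CPM at T3 and 2.77, 3.91, 3.02 and 3.09 CPM at T1 (1.49 ± 0.30, adjusted p 0.0342). In both, T3 replicate 4 was far below the other T3 libraries and still above all T1 libraries. adamts1, a protease that in mammals cuts versican around the ovulatory follicle, had 1.21, 1.24, 1.88 and 1.12 CPM at T3 and 0.237, 0.384, 0.398 and 0.287 CPM at T1 (2.08 ± 0.30, adjusted p 0.029). LOC106584371, annotated as ADAMTS10-like, had 0.889, 2.48, 1.64 and 0.851 CPM at T3 and 0.271, 0.349, 0.358 and 0.467 CPM at T1 (2.05 ± 0.42, adjusted p 0.0346). mmp2, the gelatinase of stromal cells, did not pass, with 104, 81.9, 122 and 64.5 CPM at T3 and 69.6, 69.3, 68.4 and 73.2 CPM at T1 (0.44 ± 0.17, adjusted p 0.14).

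Without T3 replicate 4 the calls among these matrix lists were 12 of 23 collagens, 16 of 39 glycoproteins and proteoglycans and 11 of 26 proteases and inhibitors, beside 7.3% of all genes in that fit. Without any 1 of the other 7 libraries at most 1 collagen, 1 glycoprotein and 0 proteases were called.

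**Figure D2:**
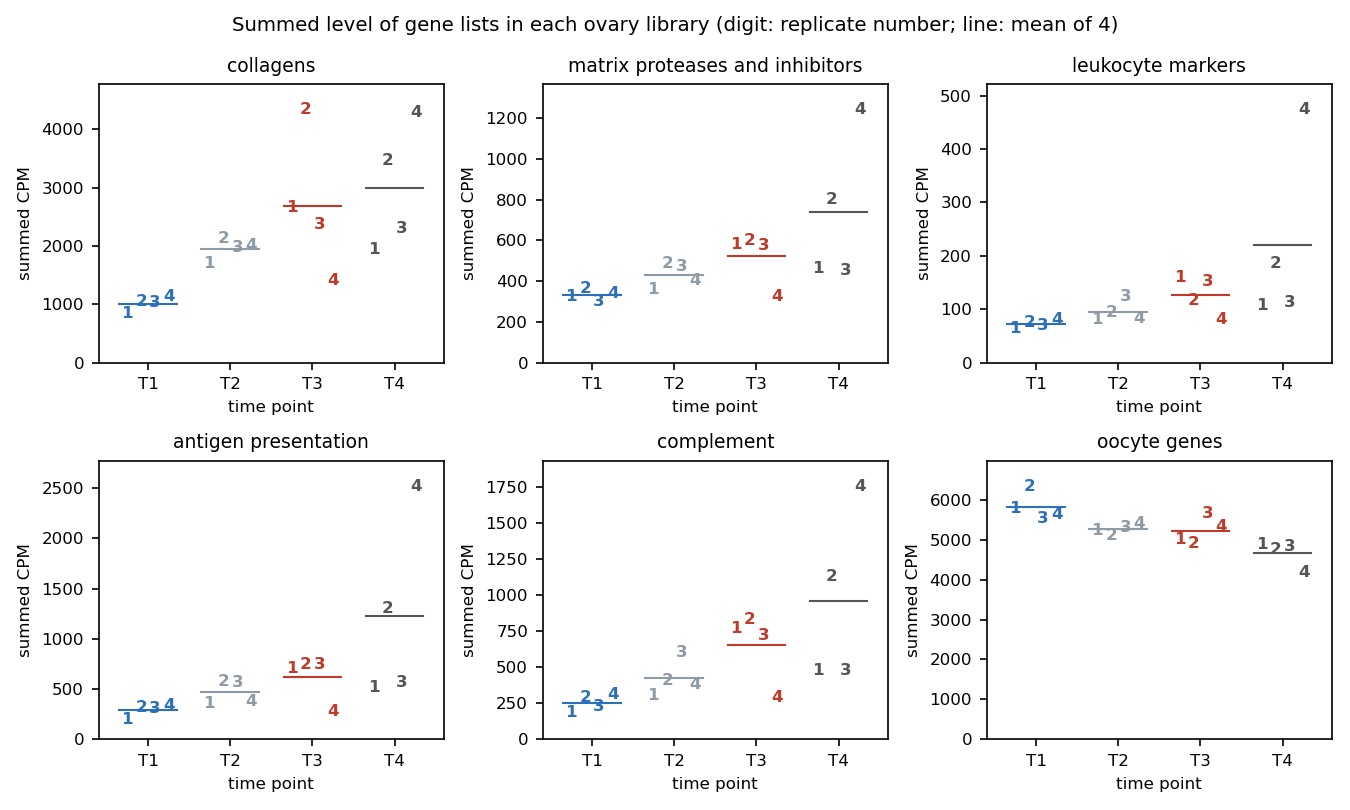
Summed level (CPM, vertical axis) of 6 gene lists in each ovary library at T1, T2, T3 and T4 (horizontal axis). Digits are replicate numbers and lines are means of 4 libraries. T3 replicate 4 lies near or inside the T1 range for proteases, leukocyte markers, antigen presentation and complement, while the oocyte genes keep to 4908 to 5671 CPM at T3 and 5551 to 6351 CPM at T1.

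Markers of stromal cells overlap with the matrix lists. Of 7 stromal markers tested, 4 rose (median 1.32), of which col1a1a, col1a1b and lum are counted in the matrix lists too, and the summed level of the list was 976 to 3505 CPM at T3 and 553 to 784 CPM at T1. lum, the keratan sulphate proteoglycan lumican, had 37.4, 36, 30.8 and 14.2 CPM in T3 libraries and 9.98, 13.1, 12.4 and 13.1 CPM in T1 libraries (log2 fold change 1.32 ± 0.28, adjusted p 0.0351). LOC106560269, annotated as a platelet-derived growth factor receptor alpha, a receptor of mesenchymal cells, had 3.07, 4.73, 2.07 and 1.93 CPM at T3 and 0.846, 0.802, 0.955 and 0.79 CPM at T1 (1.83 ± 0.33, adjusted p 0.0292). Neither gene overlapped between the groups. Of 7 smooth muscle and pericyte markers none passed (median 0.71), while 4 had an unadjusted p below 0.05, DESeq2 called 2, the exact test 1 and limma 0. acta2, smooth muscle actin, had 14.6, 47.4, 41.1 and 15.8 CPM at T3 and 17.7, 10.5, 10.7 and 11.6 CPM at T1 (1.27 ± 0.40, adjusted p 0.0838), with 2 T3 libraries high and 2 at the T1 level.

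Among 13 endothelial markers, 4 rose and none fell (median 0.94) and the summed level of the list was 102 to 134 CPM at T3 and 107 to 112 CPM at T1, with overlap. pecam1a, an adhesion molecule of endothelium and leukocytes, had 8.32, 7.83, 8.01 and 4.95 CPM at T3 and 1.89, 3.07, 2.74 and 3.77 CPM at T1 (log2 fold change 1.37 ± 0.26, adjusted p 0.0308). flt1, a receptor for vascular endothelial growth factor, had 1.13, 1.36, 1.29 and 0.619 CPM at T3 and 0.135, 0.349, 0.358 and 0.323 CPM at T1 (1.94 ± 0.39, adjusted p 0.0342). plvapb, a component of the diaphragms of fenestrated capillaries, had 3.72, 2.91, 2.97 and 1.59 CPM at T3 and 0.44, 0.663, 0.318 and 1.19 CPM at T1 (2.12 ± 0.43, adjusted p 0.0342). These 3 did not overlap between the groups. esama had 52.2, 47.3, 47.2 and 51.3 CPM at T3 and 65.7, 54.2, 58 and 45.3 CPM at T1 (-0.14 ± 0.11, adjusted p 0.425) and kdr had 17.1, 25.9, 15.9 and 19.7 CPM at T3 and 15.2, 15.8, 19.3 and 19.3 CPM at T1 (0.21 ± 0.17, adjusted p 0.473), both with overlapping groups and neither past the test. acvrl1, a receptor of the TGF-beta superfamily found chiefly on endothelium, rose, with 8.24, 9.77, 6.29 and 4.06 CPM at T3 and 2.27, 2.86, 3.3 and 2.69 CPM at T1 (1.39 ± 0.28, adjusted p 0.0342). Without T3 replicate 4 the calls were 5 of 7 stromal and 6 of 13 endothelial markers, beside 7.3% of all genes that rose in that fit. Without any 1 of the other libraries none of these markers was called.

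Leukocyte genes made up another block of risers. Of 15 general leukocyte markers 4 rose (median 1.4), of 12 macrophage and neutrophil markers 3 (median 1.55), of 9 T cell markers 2 (median 1.27) and of 5 B cell markers 1 (median 1.42), and none fell. The summed level of the general markers was 159, 117, 152 and 81.1 CPM in T3 libraries and 64.2, 75.1, 69.1 and 80.9 CPM in T1 libraries. T3 replicate 4 was therefore level with the highest T1 library. The part of a change in leukocyte number in the other calls was not tested.

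ptprc, the pan-leukocyte antigen CD45, had 38.9, 26.1, 40.7 and 10.9 CPM in T3 libraries, against 3.48, 10.1, 8.19 and 7.62 CPM in T1 libraries (log2 fold change 2.02 ± 0.43, adjusted p 0.0366). itb2, the common chain of the leukocyte integrins, had 28.2, 18.4, 23.8 and 6.11 CPM at T3 and 2.37, 5.55, 5.37 and 5.1 CPM at T1 (2.09 ± 0.45, adjusted p 0.0366). T3 replicates 1, 2 and 3 were far above the T1 libraries in both genes, and T3 replicate 4 was just above the highest of them. dock2, needed for leukocyte migration, had 2.46, 2.83, 3.28 and 0.812 CPM at T3 and 0.169, 0.558, 0.756 and 0.395 CPM at T1 (2.36 ± 0.52, adjusted p 0.0382). T3 replicate 4 was the lowest T3 library in all 3 genes. lcp2, a T cell adaptor whose copies lcp2a and lcp2b had positive log2 fold changes, did not pass, with 7.43, 10.3, 9.93 and 11.5 CPM at T3 and 9.78, 8.72, 12.5 and 10.3 CPM at T1 (-0.05 ± 0.17, adjusted p 0.889).

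Of the markers of single leukocyte types, gzma, a granzyme of cytotoxic lymphocytes, had 1.21, 1.94, 2.89 and 1.12 CPM at T3 and 0.203, 0.628, 0.438 and 0.395 CPM at T1 (log2 fold change 2.13 ± 0.43, adjusted p 0.0342). prf1.5, a perforin, had 5.46, 11.5, 7.27 and 4.95 CPM at T3 and 2.03, 3.24, 3.82 and 3.31 CPM at T1 (1.27 ± 0.31, adjusted p 0.0472). cd3e, part of the T cell receptor complex, was higher in 4 of 4 T3 libraries without passing, at 1.01, 2.79, 3.36 and 1.01 CPM in T3 libraries against 0.135, 0.767, 0.756 and 0.719 CPM in T1 libraries (1.82 ± 0.57, adjusted p 0.0867). Of the 9 T cell markers tested 7 had a positive log2 fold change. LOC100136502 and prf1.3 went the other way, with means of 28.4 and 2.1 CPM at T3 and 47.6 and 2.47 CPM at T1. Neither passed (-0.72 ± 0.33 and -0.19 ± 0.58, edgeR adjusted p 0.206 and 0.866). blnk, an adaptor of the B cell receptor, had 3.39, 1.82, 3.09 and 1.43 CPM at T3 and 0.406, 1.12, 0.915 and 0.898 CPM at T1 (1.57 ± 0.39, adjusted p 0.0474). cd68, a lysosomal marker of macrophages, had 38.8, 47.6, 44.1 and 23 CPM at T3 and 12.9, 17.3, 15 and 19.4 CPM at T1 (1.29 ± 0.23, adjusted p 0.0292). mpeg1.1, a pore-forming protein of macrophages, had 24.6, 22.5, 11.7 and 7.31 CPM at T3 and 1.69, 5.96, 5.85 and 5.6 CPM at T1 and narrowly missed the threshold (1.82 ± 0.47, adjusted p 0.0524). The summed macrophage and neutrophil list stood at 218 to 899.9 CPM at T3 and 160.1 to 213 CPM at T1, the T cell list at 43.8 to 60.6 CPM at T3 and 46.6 to 72.3 CPM at T1 and the B cell list at 8.54 to 25.7 CPM at T3 and 6.83 to 9.88 CPM at T1. In T3 replicates 1 and 3 most of the macrophage and neutrophil sum was apoeb, which is described below. c1qc and both entries of LOC100380615 in the macrophage list and 1 of the 2 ncf4 entries among the general markers had 0 counts in all 8 libraries.

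apoeb, an apolipoprotein E gene that in zebrafish marks macrophages and yolk-bordering cells, rose unevenly. It stood at 499, 7.72, 461 and 8.74 CPM in T3 replicates 1 to 4, against 1.39, 5.34, 2.03 and 4.63 CPM in T1 replicates 1 to 4 (log2 fold change 6.21 ± 1.45, adjusted p 0.042). T3 replicates 1 and 3 carried the difference, and T3 replicates 2 and 4 were just above the highest T1 library. At T4 it stood at 16.7, 1279, 9.25 and 2148 CPM in replicates 1 to 4. T3 replicates 1 and 3 were also the highest T3 libraries in lyz, lysozyme, which had 76.8, 14.7, 21.5 and 3.63 CPM at T3 and 1.56, 7.74, 11.7 and 4.53 CPM at T1 and did not pass (2.23 ± 0.85, adjusted p 0.137).

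Genes that load and present antigen were a further group. Of 12 tested, 4 rose, all 12 had a positive log2 fold change and the median was 1.12. Their summed level was 705, 746, 743 and 272 CPM in T3 libraries and 194, 319, 301 and 337 CPM in T1 libraries. T3 replicates 1, 2 and 3 were close to each other, and T3 replicate 4 fell inside the T1 range. Most of that sum was cd74a, the invariant chain of class II molecules, with 591, 615, 597 and 224 CPM at T3 and 117, 229, 222 and 238 CPM at T1 (log2 fold change 1.37 ± 0.33, adjusted p 0.0461). tap2b, a subunit of the peptide transporter of the class I pathway, had 2.63, 3.41, 3.91 and 1.51 CPM at T3 and 0.677, 0.942, 0.835 and 1.29 CPM at T1 (1.64 ± 0.34, adjusted p 0.0355). tapbp, the tapasin that bridges the transporter to class I molecules, had 6.99, 7.6, 10.05 and 3.79 CPM at T3 and 2.54, 3.59, 2.74 and 3.59 CPM at T1 (1.22 ± 0.29, adjusted p 0.0445). psmb9-a, an immunoproteasome subunit, had 7.35, 9.11, 8.09 and 4.6 CPM at T3 and 2.84, 4.12, 3.22 and 4.56 CPM at T1 (1.02 ± 0.25, adjusted p 0.0483). tap1, the partner of tap2b, lay just short of both thresholds (0.98 ± 0.25, adjusted p 0.0509).

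The complement list split between genes that rose and genes that did not. Of 16 tested, 4 rose (median 0.13), and the summed level was 768, 830.4, 723 and 291 CPM at T3 and 183, 291, 226 and 307 CPM at T1. cfd, the protease factor D that starts the alternative pathway, accounted for most of it, with 559, 659.7, 514 and 223 CPM in T3 libraries and 118, 199, 146 and 220.1 CPM in T1 libraries (log2 fold change 1.55 ± 0.32, adjusted p 0.0351). c6.2 and c7a encode parts of the membrane attack complex. c6.2 had 50.5, 17.1, 61.2 and 4.41 CPM at T3 and 2.5, 5.06, 3.46 and 3.2 CPM at T1 (3.26 ± 0.70, adjusted p 0.0367), and c7a had 66.9, 59.3, 53.7 and 18.5 CPM at T3 and 17.1, 20.1, 16.7 and 23.6 CPM at T1 (1.39 ± 0.34, adjusted p 0.0466). c1qa, which starts the classical pathway and is made by macrophages, had 41.4, 49.7, 37.4 and 10.4 CPM at T3 and 5.45, 13.5, 11.2 and 10.2 CPM at T1 (1.82 ± 0.44, adjusted p 0.0469). In c6.2, c7a and c1qa, as in cd74a, T3 replicate 4 overlapped the T1 libraries. Among the other members c5, c8a, c8b and c9 did not pass and had log2 fold changes below 0. c8g did not pass either, with a positive log2 fold change (1.19 ± 0.50, edgeR adjusted p 0.172). Only 8 of the 16 had a positive log2 fold change. All T3 libraries lay below all T1 libraries in 3 of the 16 and above in 2, beside 8.77% and 9.05% of all genes. The 3 were cfhl5, c1r and c8a, with log2 fold changes of -0.62 ± 0.18, -0.71 ± 0.23 and -0.31 ± 0.20, and none of them passed. cfd is also the 1 called member of 3 adipocyte markers tested, of which plin1 and pparg did not pass and adipoqa, cidec and fabp4 had 0 counts in all 8 libraries.

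Innate signalling and interferon genes gave few calls. Of 15 genes of toll-like receptor and NF-kB signalling 2 rose (median 0.27), and of 23 interferon response genes 2 (median 0.59). tlr21, a receptor for bacterial DNA in birds and fish, had 3.56, 2.17, 2.07 and 0.619 CPM at T3 and 0.237, 0.663, 0.438 and 0.431 CPM at T1 (log2 fold change 2.27 ± 0.52, adjusted p 0.0405). myd88, the adaptor below most of these receptors, had 3.39, 3.37, 3.56 and 1.86 CPM at T3 and 1.08, 1.22, 1.43 and 1.58 CPM at T1 (1.23 ± 0.27, adjusted p 0.038). irf9, part of the complex that carries the type I interferon signal, had 7.76, 8.92, 7.7 and 7.15 CPM at T3 and 3.32, 3.84, 3.02 and 4.81 CPM at T1 (1.1 ± 0.19, adjusted p 0.0292), and here T3 replicate 4 was level with the other T3 libraries. irf1b had 5.13, 7.21, 6.49 and 2.44 CPM at T3 and 1.49, 1.88, 2.51 and 1.83 CPM at T1 (1.5 ± 0.34, adjusted p 0.0397). None of 12 chemokines and chemokine receptors passed (median 0.39), while 4 had an unadjusted p below 0.05, DESeq2 called 2, the exact test 3 and limma 0. cxcl12a, a chemokine of stromal cells, came nearest, with 6.67, 10.1, 5.16 and 2.63 CPM at T3 and 1.89, 1.53, 2.47 and 2.8 CPM at T1 (1.54 ± 0.39, adjusted p 0.0515).

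Without T3 replicate 4 the calls were 11 of 15 leukocyte, 7 of 12 macrophage and neutrophil, 3 of 9 T cell and 3 of 5 B cell markers, 9 of 12 antigen presentation, 4 of 16 complement, 5 of 15 innate signalling and 4 of 23 interferon genes and 2 of 12 chemokines and receptors. In that fit 7.3% of all genes rose. Without any 1 of the other 7 libraries no member of these lists was called.

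Steroid-producing genes rose in part. Of 15 tested, 3 rose and none fell (median 0.35), while the summed level was 891 to 937 CPM at T3 and 928 to 975 CPM at T1. Most of that sum was hsd17b12a and hsd17b12b, with means of 336 and 315 CPM at T3 and 371 and 351 CPM at T1. Neither of these 2 genes passed, and the sum says little about the less abundant members. nr5a1b, a gene of steroidogenic factor 1, the transcription factor that switches on steroid enzymes, had 8.36, 12.4, 4.57 and 4.49 CPM in T3 libraries, against 2.71, 2.79, 2.55 and 2.73 CPM in T1 libraries (log2 fold change 1.51 ± 0.33, adjusted p 0.0385). The T1 libraries agreed closely, T3 replicates 3 and 4 were moderately above them and T3 replicate 2 was the highest. hsd3b1, the enzyme that turns pregnenolone into progesterone, had 46.9, 52, 29.6 and 22.7 CPM at T3 and 15.1, 20.7, 20.6 and 17.5 CPM at T1 (1.07 ± 0.26, adjusted p 0.0447). stard4, a carrier of cholesterol in the cytosol, had 0.647, 0.659, 0.626 and 0.425 CPM at T3 and 0.135, 0.244, 0.318 and 0.18 CPM at T1 (1.45 ± 0.36, adjusted p 0.0474). cyp17a1, which makes androgen precursors in theca cells, had 30.1, 57.8, 16 and 13.9 CPM at T3 and 9.14, 11.7, 12.5 and 15 CPM at T1 (1.32 ± 0.42, adjusted p 0.0885), and star, which carries cholesterol into mitochondria, had 1.58, 2.33, 0.86 and 0.425 CPM at T3 and 0.677, 0.209, 0.358 and 0.467 CPM at T1 (1.62 ± 0.55, adjusted p 0.102). Both missed the threshold, with T3 replicates 1 and 2 high, as in nr5a1b, and T3 replicate 4 in the T1 range.

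Of 14 receptors for gonadal and growth hormones 1 rose (median 0.38), where 3.51% of all genes did. It was igf1ra, a receptor of insulin-like growth factor 1, with 8.45, 14.9, 10.3 and 10.2 CPM in T3 libraries and 3.99, 5.2, 5.57 and 6.22 CPM in T1 libraries (log2 fold change 1.1 ± 0.21, adjusted p 0.0334). The luteinizing hormone receptor lhcgr had 4.65, 8.45, 2.81 and 2.47 CPM at T3 and 1.29, 1.08, 2.15 and 1.69 CPM at T1. All T3 libraries lay above all T1 libraries, and the gene narrowly missed the threshold (1.61 ± 0.42, adjusted p 0.0545). The follicle-stimulating hormone receptor fshr had 7.15, 11.2, 14.9 and 12.6 CPM at T3 and 9.41, 12, 12.4 and 11 CPM at T1 (0.06 ± 0.21, adjusted p 0.887), with overlapping groups. esr2a, an oestrogen receptor beta gene, had 12.3, 14, 12.3 and 12 CPM at T3 and 7.92, 7.46, 8.63 and 8.37 CPM at T1. The groups were well apart and the adjusted p was 0.0292, but the log2 fold change of 0.68 ± 0.12 was under the fold threshold. esr1, oestrogen receptor alpha, had 96.5, 78.3, 76.6 and 77.9 CPM at T3 and 90.7, 107, 102 and 96.4 CPM at T1 (-0.24 ± 0.09, adjusted p 0.134). pgr and prlrb, a progesterone and a prolactin receptor gene, each had an entry with 0 counts in all 8 libraries. Of 12 genes of the insulin-like growth factor system 2 rose (median 0.52), igf1ra and the binding protein gene igfbp7, which had 8.65, 13.9, 7.31 and 6.84 CPM at T3 and 3.15, 3.31, 3.58 and 5.35 CPM at T1 (1.29 ± 0.28, adjusted p 0.0374).

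**Figure D3:**
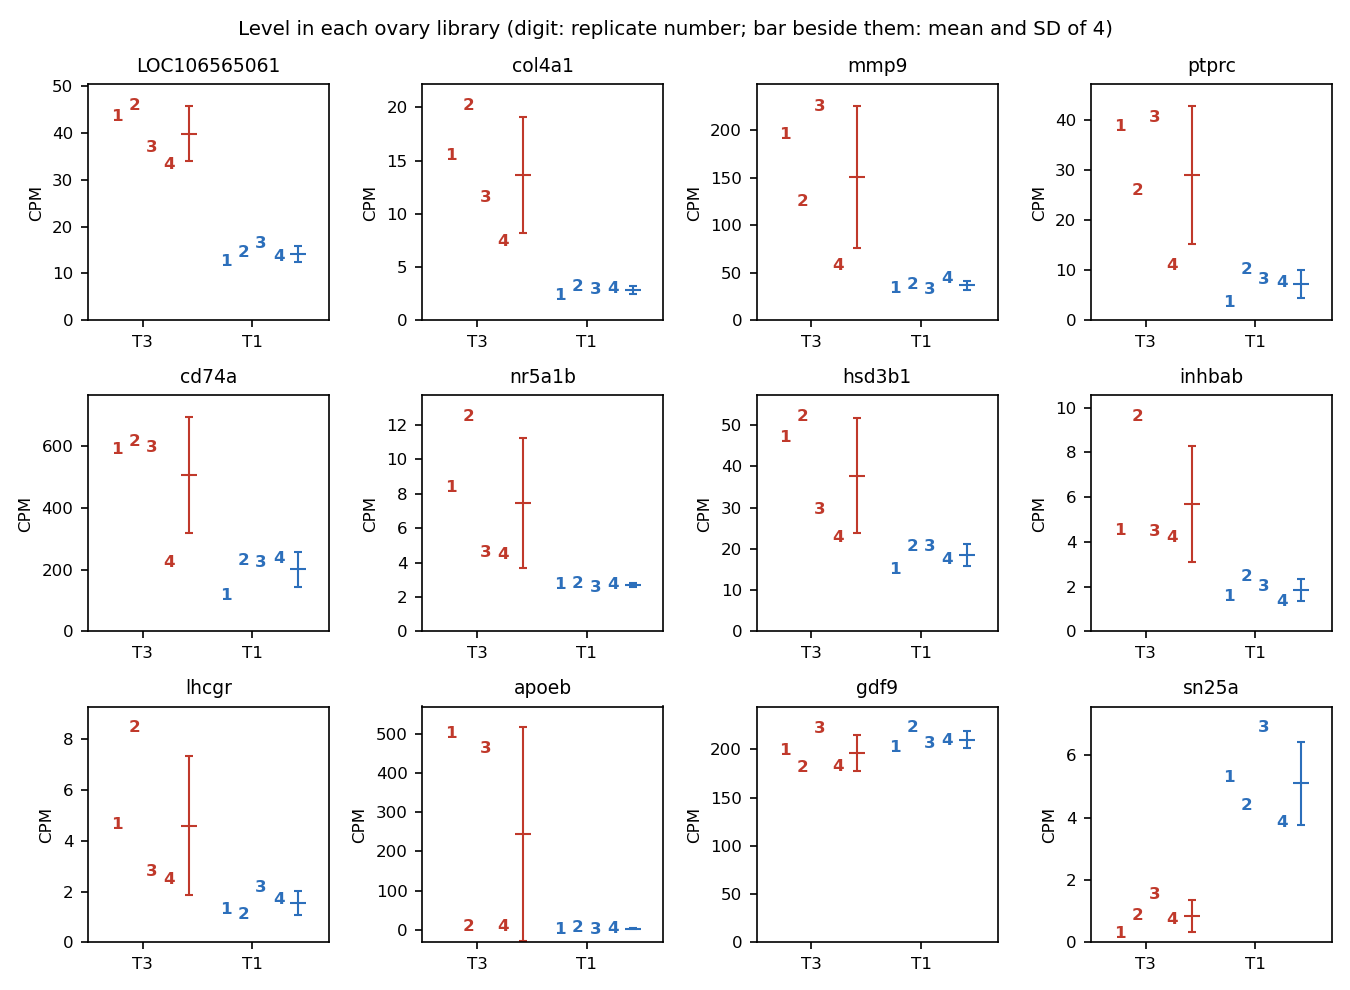
Level (CPM, vertical axes) of 12 genes in each ovary library at T3 (left, red) and T1 (right, blue). Digits are replicate numbers, and the bar beside each group is its mean with the SD of 4 libraries. The dystroglycan-like gene LOC106565061 separates the groups in all libraries, cd74a and apoeb have low T3 libraries at or near the T1 level, gdf9 overlaps, and sn25a is lower at T3.

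Growth factors of the TGF-beta family and other follicle factors changed gene by gene. Of 35 tested, 4 rose (median 0.13). inhbab, an activin and inhibin beta A subunit gene of granulosa cells, had 4.49, 9.58, 4.46 and 4.21 CPM in T3 libraries and 1.56, 2.44, 1.99 and 1.33 CPM in T1 libraries (log2 fold change 1.67 ± 0.33, adjusted p 0.0342). tgfb1a, transforming growth factor beta 1, had 6.55, 4.65, 4.77 and 1.97 CPM at T3 and 0.846, 0.942, 1.35 and 1.19 CPM at T1 (2.08 ± 0.36, adjusted p 0.0292). kitlga, the ligand through which follicle cells signal to the kit receptor of the oocyte and theca, had 1.25, 1.01, 1.52 and 1.12 CPM at T3 and 0.237, 0.698, 0.239 and 0.431 CPM at T1 (1.63 ± 0.38, adjusted p 0.042). None of these overlapped between the groups, and acvrl1 was the remaining call of the list. None of 4 granulosa markers passed with edgeR, DESeq2, limma or the exact test, though 3 had an unadjusted p below 0.05 (median 0.77, summed level 544 to 1478 CPM at T3 and 377 to 618 CPM at T1). amh, anti-Müllerian hormone, had 315, 973, 479 and 388 CPM at T3 and 232, 433, 299.6 and 330.1 CPM at T1 (0.77 ± 0.34, adjusted p 0.188), with T3 replicate 2 far above the others. inha, the inhibin alpha subunit, had 189, 446, 244 and 173 CPM at T3 and 119, 152, 141 and 147 CPM at T1, with no overlap (0.95 ± 0.28, adjusted p 0.0693), and wt1a had 31.8, 47.8, 34.4 and 19.3 CPM at T3 and 16.2, 21.3, 19.5 and 23.2 CPM at T1 (0.77 ± 0.25, adjusted p 0.0894). Without T3 replicate 4 the calls were 5 of 15 steroid genes, 2 of 14 receptors, 3 of 12 genes of the insulin-like growth factor system, 7 of 35 follicle factors and 1 of 4 granulosa markers. In that fit 7.3% of all genes rose. Without any 1 of the other libraries no member of these lists was called.

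The oocyte's own genes had slightly negative changes. None of 29 oocyte genes passed in either direction by edgeR, DESeq2, limma or the exact test, and 6 had an unadjusted p below 0.05, all of them lower at T3. Their median log2 fold change was -0.10, 24 of the 29 were below 0 and 5 had all T3 libraries below all T1 libraries, beside 8.77% of all genes. The summed level was 5023, 4908, 5671 and 5344 CPM in T3 libraries and 5798, 6351, 5551 and 5632 CPM in T1 libraries. bmp15, an oocyte growth factor that acts on granulosa cells, had 238, 221, 226 and 228 CPM at T3 and 257, 251, 229 and 240.1 CPM at T1 (log2 fold change -0.07 ± 0.06, adjusted p 0.504). gdf9, its close relative, had 199, 182, 221 and 182 CPM at T3 and 202, 222, 206 and 209 CPM at T1 (-0.07 ± 0.08, adjusted p 0.61). The oocyte transcription factor genes figla and nobox had log2 fold changes of -0.04 ± 0.12 and -0.04 ± 0.18. All 4 overlapped between the groups or differed by less than 0.1 on the log2 scale.

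Cell cycle and housekeeping genes also gave no calls. None of 35 cell cycle genes passed both thresholds (median -0.12), and 27 were below 0. An unadjusted p below 0.05 was reached by 10 of them, 9 of which were lower at T3. By edgeR adjusted p alone kif23 was higher at T3 (log2 fold change 0.72 ± 0.15, adjusted p 0.0349) and ube2c lower (-0.26 ± 0.06, adjusted p 0.049). Neither gene overlapped between the groups. ccnb1, a cyclin stored in oocytes, had 515, 563, 625 and 568 CPM at T3 and 648, 704, 627 and 630.5 CPM at T1 (log2 fold change -0.17 ± 0.08, adjusted p 0.191), and the measured entry of the proliferation marker mki67 had 3.6, 4.3, 3.09 and 5.06 CPM at T3 and 3.69, 3.49, 4.38 and 3.66 CPM at T1 (0.11 ± 0.20, adjusted p 0.772). None of 52 respiratory chain subunits passed (median -0.10), although 9 had an unadjusted p below 0.05. All T3 libraries lay below all T1 libraries in 10 of the 52, beside 8.77% of all genes tested. None of 65 cytosolic ribosomal protein genes passed, and 62 of them were above 0 (median 0.24), 3 with an unadjusted p below 0.05. DESeq2, limma and the exact test called no cell cycle, respiratory chain or ribosomal protein gene. The summed level of the ribosomal protein genes was 8502, 12941, 10077 and 6973 CPM in T3 libraries and 7237, 9226, 7926 and 8961 CPM in T1 libraries. T3 replicates 2 and 3 were the highest of the 8 libraries and T3 replicate 4 the lowest, and the median was 0.05 to 0.37 when 1 library was left out.

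A few called genes belonged to smaller lists. Of 20 clock genes 2 rose (median 0.18), beside 3.51% of all genes. Both are repressors of the clock that also respond to other signals. bhlhe41 had 3.23, 1.47, 2.54 and 0.889 CPM at T3 and 0.541, 0.698, 0.557 and 0.683 CPM at T1 (log2 fold change 1.74 ± 0.40, adjusted p 0.0414), and bhlhe40 had 8.93, 7.76, 8.29 and 4.18 CPM at T3 and 2.37, 3.31, 3.7 and 4.35 CPM at T1 (1.12 ± 0.28, adjusted p 0.0487). The core clock gene arntl1a had 49.4, 46.4, 49.1 and 57 CPM at T3 and 56.7, 56, 60.9 and 59 CPM at T1 and did not pass (-0.18 ± 0.07, adjusted p 0.149). Of 13 subunits of the SWI/SNF chromatin remodelling complexes 2 rose (median 0.12). The ATPase gene smarca2 had 5.25, 7.76, 5.47 and 5.49 CPM at T3 and 2.57, 3.21, 3.74 and 2.59 CPM at T1 (1.02 ± 0.21, adjusted p 0.0349), and LOC106610785, annotated as ARID1B-like, had 1.41, 2.71, 1.68 and 1.43 CPM at T3 and 0.575, 0.419, 0.676 and 0.934 CPM at T1 (1.5 ± 0.34, adjusted p 0.0394). Of 27 semaphorins and plexins, guidance cues and their receptors, 4 rose (median 0.53), among them plxnb2b at 12, 9.66, 6.69 and 5.26 CPM in T3 libraries and 2.98, 2.79, 2.63 and 2.05 CPM in T1 libraries (1.72 ± 0.28, adjusted p 0.0292) and LOC106587207, annotated as semaphorin-7A-like, at 4.93, 3.02, 4.22 and 1.47 CPM in T3 libraries and 0.474, 0.907, 0.636 and 0.647 CPM in T1 libraries (2.38 ± 0.40, adjusted p 0.0292). The other calls of this list were LOC106572068, a plexin A3 gene (1.76 ± 0.28, adjusted p 0.0292), and sema3b (1.37 ± 0.34, adjusted p 0.0472). Without T3 replicate 4 the calls were 2 of 20 clock genes, 2 of 13 SWI/SNF subunits and 8 of 27 semaphorins and plexins. In that fit 7.3% of all genes rose, so the clock count is near that share. Without any 1 of the other libraries no member of these lists was called.

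Of 19 genes of cholesterol synthesis and uptake only npc2.1, which carries cholesterol out of lysosomes, rose (median -0.02), with 30.5, 23.9, 36.9 and 12.6 CPM at T3 and 9.61, 11.6, 10.7 and 11.6 CPM at T1 (log2 fold change 1.29 ± 0.28, adjusted p 0.0378). Of 22 immediate early and heat shock genes only hspb1, a small heat shock protein, rose (median -0.01), with 23.1, 17, 7.86 and 1.7 CPM at T3 and 0.778, 1.05, 0.477 and 1.76 CPM at T1 (3.64 ± 0.74, adjusted p 0.0342), and T3 replicate 4 lay inside the T1 range. A count of 1 in 19 or in 22 genes is near the 3.51% of all genes that rose. Of 6 red cell markers 1 rose (median 1.28), the haemoglobin gene LOC106601071 (1.63 ± 0.36, adjusted p 0.0381), and the summed list stood at 11.8 to 16.7 CPM at T3 and 4.1 to 11.8 CPM at T1. itga2b, the 1 thrombocyte marker tested, had 1.74, 3.3, 1.29 and 0.851 CPM at T3 and 0.203, 0.349, 0.636 and 0.431 CPM at T1 (2.18 ± 0.49, adjusted p 0.0396). Among 16 hepatocyte markers, 2 exocrine pancreas markers and 4 skeletal muscle markers none passed, with medians of -0.28, -0.45 and -0.82, although 6, 1 and 1 of them had an unadjusted p below 0.05. By edgeR adjusted p alone the hepatocyte markers alb2 and hpxa were lower at T3 (-0.77 ± 0.12 and -0.69 ± 0.13, adjusted p 0.029 and 0.0334). Neither overlapped between the groups. The only hepatocyte marker beyond the fold threshold was tfa, higher at T3 (1.26 ± 0.41, edgeR adjusted p 0.0951). edgeR's exact test called 1 hepatocyte marker, and DESeq2 and limma called none of these genes.

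The 12 largest rises among called genes with a name, a mean of at least 1 CPM at T3 and no overlap of the groups included apoeb and several low-abundance genes. cdd, cytidine deaminase, a pyrimidine salvage enzyme, had 9.21, 1.05, 10.2 and 0.657 CPM in T3 libraries and 0.406, 0.209, 0.358 and 0.251 CPM in T1 libraries (log2 fold change 4.12 ± 0.91, adjusted p 0.0383). As in apoeb, T3 replicates 1 and 3 were high and replicates 2 and 4 low. zgc:92242 had the same pair on top, with 7.07, 1.36, 4.73 and 1.31 CPM at T3 and 0.609, 0.663, 0.477 and 0.898 CPM at T1 (2.47 ± 0.57, adjusted p 0.0419). LOC106580086, annotated as a G(q) subunit alpha-like gene, a transducer of receptor signals, was low in T3 replicate 1 instead, with 1.66, 11.1, 14.8 and 13.7 CPM at T3 and 0.914, 1.4, 0.676 and 0.862 CPM at T1 (3.44 ± 0.59, adjusted p 0.0292). LOC106602060, annotated as a zinc-activated ligand-gated ion channel, had 0.687, 0.388, 2.19 and 3.25 CPM at T3, while at T1 it had 0 counts in replicates 1, 2 and 4 and 2 counts in replicate 3, too few for a fold change.

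fut7, a fucosyltransferase that in mammals makes selectin ligands of leukocytes, had 1.09, 0.97, 1.6 and 0.464 CPM at T3 and 0.0338, 0.244, 0.0796 and 0.108 CPM at T1 (log2 fold change 3.13 ± 0.56, adjusted p 0.0295). tnfaip2b, a gene whose relatives respond to tumour necrosis factor, had 3.64, 2.37, 3.75 and 0.773 CPM at T3 and 0.338, 0.523, 0.517 and 0.539 CPM at T1 (2.48 ± 0.48, adjusted p 0.0319). tnfrsf1b, a receptor for that cytokine, had 2.1, 2.25, 1.72 and 0.503 CPM at T3 and 0.406, 0.14, 0.398 and 0.287 CPM at T1 (2.44 ± 0.51, adjusted p 0.0355). In these 3 genes T3 replicate 4 was again the lowest T3 library. glipr2, LOC106610175 (transmembrane protein 154-like), LOC106584361 (nuclear factor 1 C-type-like) and fut8a, the core fucosyltransferase, completed the 12, with log2 fold changes of 2.73, 2.55, 2.45 and 2.44 and means of 1.03 to 2.23 CPM at T3 and 0.189 to 0.338 CPM at T1.

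The genes of smallest p were not those of largest change. Beside the dystroglycan-like gene, peroxidasin and frem1a they were aplp2, syne1a and bcl6b. aplp2, a relative of the amyloid precursor protein, had 7.8, 9.35, 9.5 and 9.43 CPM in T3 libraries and 2.57, 2.48, 3.22 and 3.52 CPM in T1 libraries (log2 fold change 1.64 ± 0.17, adjusted p 0.0153). syne1a, which links the nucleus to the cytoskeleton, had 51, 61.2, 37.5 and 41.4 CPM at T3 and 18.9, 20.1, 20.7 and 18.3 CPM at T1 (1.32 ± 0.15, adjusted p 0.0193). bcl6b, a transcriptional repressor, had 10.5, 8.38, 7.66 and 6.15 CPM at T3 and 2.1, 2.2, 2.43 and 2.98 CPM at T1 (1.78 ± 0.21, adjusted p 0.0219). The groups were well apart in all 3, and the lowest T3 library was replicate 1 for aplp2, replicate 3 for syne1a and replicate 4 for bcl6b. The calls of aplp2, syne1a and bcl6b were kept in 6, 4 and 3 of the 8 fits without 1 library.

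The 31 lower genes had a median log2 fold change of -1.70 (range -8.74 to -1.05). No member of any list was among them. Only 7 of them had a name, no overlap of the groups and a mean of at least 1 CPM at T1. sn25a, a SNARE protein of nerve terminals, had 0.283, 0.853, 1.52 and 0.735 CPM in T3 libraries, against 5.28, 4.39, 6.88 and 3.84 CPM in T1 libraries (log2 fold change -2.55 ± 0.43, adjusted p 0.0292). vsnl1b, a neuronal calcium sensor, had 0.162, 0.0776, 0.195 and 0.309 CPM at T3 and 1.32, 0.872, 1.91 and 1.04 CPM at T1 (-2.73 ± 0.42, adjusted p 0.029). plp1b, a myelin protein gene, had 0.323, 0.271, 1.45 and 0.271 CPM at T3 and 2.94, 2.55, 3.22 and 2.01 CPM at T1 (-2.17 ± 0.53, adjusted p 0.0474). These are genes of nervous tissue, and their mean in the brain libraries of T3 was 2234, 619 and 1266 CPM. atp1b4 had 0.808, 0.659, 1.49 and 0.889 CPM at T3 and 2.88, 2.16, 2.7 and 2.3 CPM at T1 (-1.35 ± 0.28, adjusted p 0.0353), with a mean of 987 CPM in brain at T3. cp, ceruloplasmin, a copper-carrying ferroxidase made chiefly by the liver, had 2.79, 2.83, 3.56 and 2.01 CPM at T3 and 5.89, 5.93, 7.28 and 5.5 CPM at T1 (-1.1 ± 0.21, adjusted p 0.0316), with a mean of 2258 CPM in liver at T3. syndig1l and cssa22h20orf96 had log2 fold changes of -1.27 ± 0.30 and -1.05 ± 0.24 (adjusted p 0.0422 and 0.042), and both were below 10 CPM in brain.

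Several of these genes are far more abundant in another tissue, and the following count was made after their values were seen. For 17 of the 31 lower genes some other tissue held over 100 times the ovary level, and in 16 cases it was brain. The study left brain out of its own analyses because the replicates disagreed and the regions dissected varied. That limits the brain levels used here and below. Genes with over 200 CPM in 1 tissue, under 20% of that level in the other 2 and under 1% of it in the ovary were then followed as a group. The 91 such brain genes had a median level of 0.131% to 0.230% of their brain level in T3 ovary libraries and 0.258% to 0.345% in T1 ovary libraries, without overlap. Of 86 tested, 13 fell and none rose (median -0.72), beside 0.0998% of all genes that fell. These 13 are among the 31 lower genes whose values prompted the count, and the 1% limit used the same ovary libraries. An excess over all genes was therefore fixed in advance and is no separate support. Genes as low at T3 as vsnl1b could reach the count filter only by their T1 level. The 37 pituitary genes stood at 0.262% to 0.274% at T3 and 0.168% to 0.277% at T1 with no call (median 0.34), and the 218 liver genes at 0.145% to 0.192% at T3 and 0.180% to 0.223% at T1 with no call (median -0.26). The part of RNA carried over between tissues in these falls was not tested. With all genes below that 1% limit in the ovary left out of the fit, 1084 genes rose and 14 fell.

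**Figure D4:**
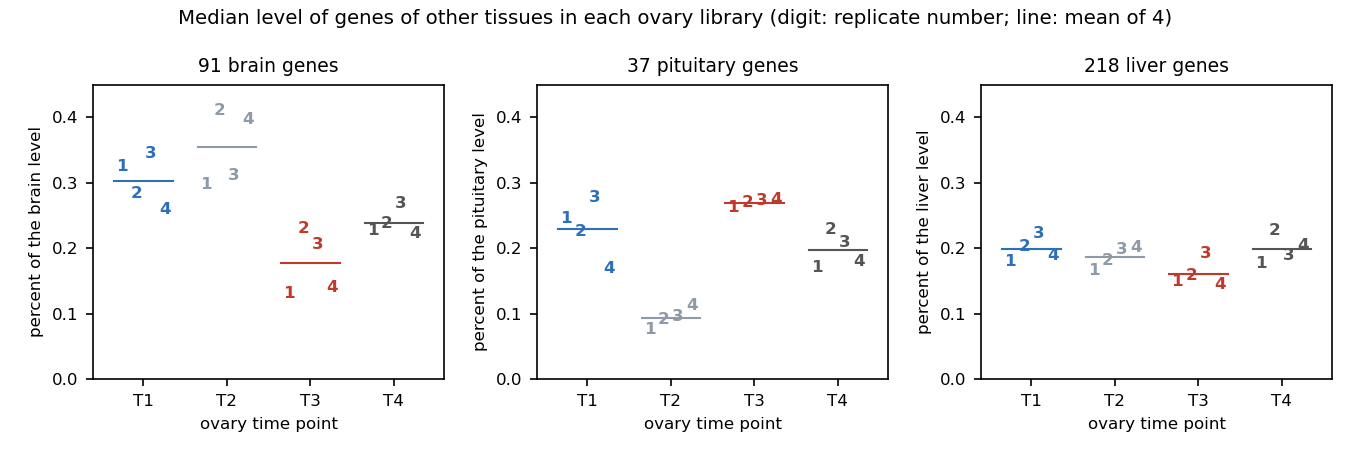
Median level of genes typical of brain (91), pituitary (37) and liver (218) in each ovary library, as percent of their level in that tissue (vertical axes), at T1, T2, T3 and T4 (horizontal axes). Digits are replicate numbers and lines are means of 4. The highest value is 0.410%, for brain genes at T2. The brain genes are lowest at T3 (0.131% to 0.230%), and the pituitary genes are lowest at T2 (0.0751% to 0.112%).

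The rises and falls sat in different classes of genes when all tested genes were sorted by how far the ovary dominates their expression. For this the ovary level was taken from the T2 and T4 libraries, which were not part of the comparison, and set against the highest mean of brain, pituitary and liver. These levels are not independent of the calls. Of the 1090 higher genes, 1060 had a T2 mean between those of T1 and T3, and 994 had a T4 mean above that of T3. Of 11609 genes whose ovary level was between 10% and 100% of that of another tissue, 713 (6.14%) rose, and of 2615 genes at 1% to 10% of another tissue 149 (5.70%) rose. Of 13729 genes up to 10-fold above the other tissues 199 (1.45%) rose, of 1959 genes 10- to 100-fold above 22 (1.12%) and of 548 genes over 100-fold above 6 (1.09%). Of 601 genes at under 1% of another tissue 1 rose and 17 (2.83%) fell. Downward shifts without overlap of the groups were more frequent in the ovary-dominated classes, and also in the class at under 1% of another tissue. All T3 libraries lay below all T1 libraries in 14.2%, 18.7% and 13.3% of the genes over 100-fold, 10- to 100-fold and up to 10-fold above the other tissues, against 2.78% and 1.68% of the genes at 10% to 100% and at 1% to 10% of another tissue. Medians were -0.15, -0.15 and -0.06 in the 3 ovary-dominated classes and 0.17 and 0.36 in the classes at 10% to 100% and at 1% to 10% of another tissue. Of the genes at under 1% of another tissue, 14.1% had all T3 libraries below all T1 libraries, and their median was -0.21.

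**Figure D5:**
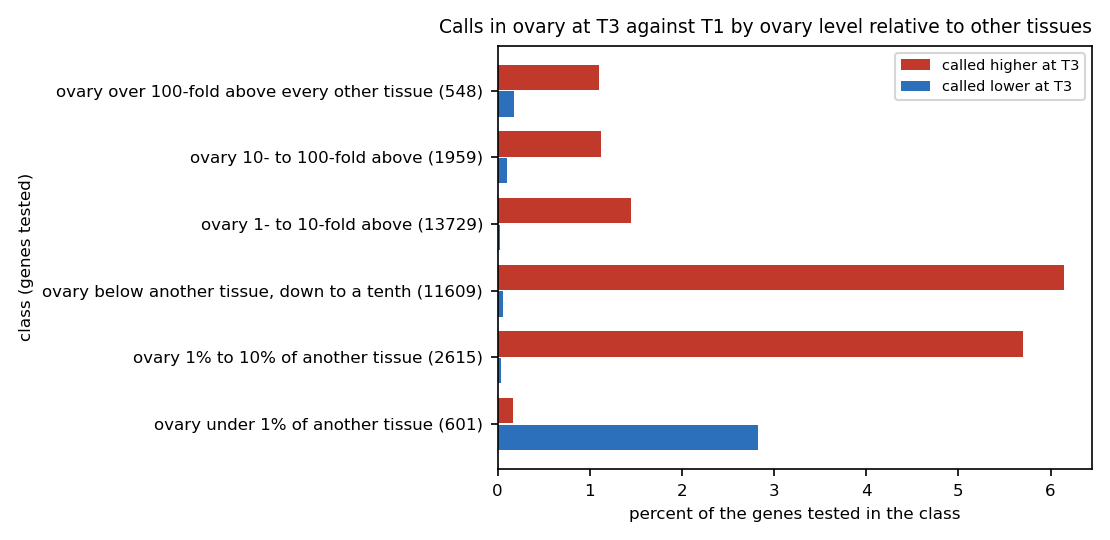
Percent of the tested genes called higher (red) or lower (blue) in ovary at T3 against T1, in 6 classes of genes ordered by their ovary level relative to the highest of brain, pituitary and liver (number of genes tested in parentheses). Rises peak at 6.14% among genes somewhat below another tissue, and falls at 2.83% among genes under 1% of another tissue.

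The levels at T2 and T4 were set beside those of T3. Of the 1090 higher genes, 1060 had a T2 mean between those of T1 and T3, 29 had a T2 mean at or above that of T3, and 994 had a T4 mean above that of T3. The T4 libraries were split, with T4 replicates 1 to 4 at 10.9, 92.4, 9.98 and 146 on the first principal component, and without T4 replicate 4, a setting chosen after seeing the data, the last count was 706. These genes were chosen on the T1 and T3 libraries, so the counts are a description. col4a1 averaged 2.86, 8.82, 13.7 and 14.7 CPM at T1, T2, T3 and T4, so that most of its rise was present at T2. ptprc averaged 7.36, 16.5, 29.1 and 67.9 CPM, and its T4 libraries stood at 24.6, 56, 23.6 and 167 CPM. cd74a averaged 202, 376, 507 and 1013 CPM, and its T4 libraries stood at 415, 1128, 495 and 2016 CPM. In both genes T4 replicates 1 and 3 were below the T3 mean, and without T4 replicate 4 the T4 means were 34.7 CPM for ptprc and 679 CPM for cd74a. hsd3b1 averaged 18.5, 27.5, 37.8 and 60.1 CPM. Of the 31 lower genes, all had a T4 mean above that of T3 and 23 had a T2 mean between those of T1 and T3. sn25a averaged 5.1, 4.99, 0.849 and 3.13 CPM, so that only T3 was low.

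Set directly against T2, the T3 ovary differed in few genes. Of 31411 genes tested 2 were called (0.00637%), both higher at T3, 2147 had an unadjusted p below 0.05, and DESeq2 called 51. LOC100136491, chosen for naming after its values were seen, had 106, 79.7, 73.8 and 92.7 CPM in T3 libraries, against 20.8, 16, 17.5 and 10.6 CPM in T2 libraries (log2 fold change 2.44 ± 0.20, edgeR adjusted p 0.0124), and 87.7, 71.3, 105 and 56.3 CPM in T1 libraries. T2 was thus the low time point, as it was for the pituitary genes as a group, and the gene averaged 33522 CPM in pituitary.

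Differences between tissues in the change to T3 were tested in 1 fit over ovary, liver and pituitary at T3 and T1, whose ovary libraries are those of the comparison above. The paper describes 4 fish per time point with the tissues collected at each sampling, while the labels do not say whether tissues of the same number came from the same fish. The libraries entered as independent, so the SE and p-values of these differences take no account of shared fish. The change in the ovary differed from that in the liver in 4056 of 36671 genes (11.1%), of which 2507 (6.84%) were larger in the ovary and 1549 (4.22%) smaller. It differed from that in the pituitary in 1210 genes (3.3%), of which 873 (2.38%) were larger and 337 (0.919%) smaller. Without ovary T3 replicate 4 the pituitary count was 2016, without ovary T1 replicate 1 it was 692, and without ovary T3 replicate 2 and pituitary T3 replicate 4 it was 714 and 785. A difference holds the changes of both tissues, so a larger change in ovary does not mean a rise there. It was called against liver in 13 of 29 oocyte and 35 of 65 ribosomal protein genes, none of which was called in ovary. Of the 1090 higher genes 1088 were tested here. The difference was called in the same direction for 658 against liver and 438 against pituitary.

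For ptprc the log2 change was larger in ovary than in liver by 1.98 ± 0.41 (SE, edgeR adjusted p 0.00169) and than in pituitary by 2.33 ± 0.43 (adjusted p 0.004). Its liver means were 29.9 CPM at T3 and 31.1 CPM at T1, and its pituitary means 7.16 and 9.54 CPM, both with the T3 mean slightly below that of T1. cd74a gave differences of 1.4 ± 0.32 (adjusted p 0.00367) and 1.57 ± 0.32 (adjusted p 0.00837), mmp9 of 2.32 ± 0.61 (adjusted p 0.00917) and 2.57 ± 0.65 (adjusted p 0.0262), and pecam1a of 1.67 ± 0.27 (adjusted p 0.000186) and 1.21 ± 0.27 (adjusted p 0.0129), against liver and against pituitary. Of 23 collagens the change was larger in ovary than in liver in 7 and than in pituitary in 3. col4a1 differed by 1.3 ± 0.35 (adjusted p 0.00998) from liver and by 1.57 ± 0.33 (adjusted p 0.0101) from pituitary, and col1a1a by 1.31 ± 0.40 (adjusted p 0.022) and 1.72 ± 0.40 (adjusted p 0.0162).

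The peroxidasin homolog LOC106610765 had a mean in liver of 6.81 CPM at T3 and 14.4 CPM at T1 and a difference from liver of 2.46 ± 0.28 (adjusted p 3.56e-06), and it also differed from pituitary (1.31 ± 0.28, adjusted p 0.0101). hspg2 and the dystroglycan-like LOC106565061 differed from liver (1.37 ± 0.24, adjusted p 0.000345, and 1.07 ± 0.26, adjusted p 0.00531). Their difference from pituitary did not pass (0.66 ± 0.24, adjusted p 0.127, and 0.52 ± 0.24, adjusted p 0.257), and the pituitary means of hspg2 were 42 CPM at T3 and 27.3 CPM at T1. hsd3b1 differed from liver by 2.72 ± 0.44 (adjusted p 0.000183) and from pituitary by 1.12 ± 0.42 without passing (adjusted p 0.153), both tissues holding at most 1.03 CPM of it on average. aplp2 differed from both (1.99 ± 0.28, adjusted p 4.18e-05, and 1.33 ± 0.28, adjusted p 0.00952). Among the lower genes, vsnl1b differed by -3.0 ± 0.49 from liver (adjusted p 0.000167) and by -3.2 ± 0.48 from pituitary (adjusted p 0.000935).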

How the data were processed

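Messenger RNA of 64 libraries (4 tissues, 4 time points, 4 fish each) had been sequenced from TruSeq libraries. Per the study's methods and the submitters' processing notes, reads were checked with FastQC, mapped to the salmon genome ICSASG_v2 with TopHat2 2.1.1, sorted with SAMtools 1.4 and counted per gene with HTSeq 0.7.2. The authors deposited these as raw counts for 81574 gene entries, and, in a second table, as normalized log2 values that were used only in an alternative. Only unique reads were counted, with the reverse strand setting.

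The counts were tested with edgeR 4.0.16 (R 4.3.3, limma 3.58.1) by the quasi-likelihood test after filterByExpr with a minimum count of 10 and TMM scaling. T3 and T1 ovary libraries alone entered the main fit. Calls needed a log2 fold change beyond 1 in either direction together with p, adjusted over all genes by Benjamini-Hochberg, below 0.05. Differences between tissues came from an interaction term. Each SE was the absolute log2 change divided by the square root of the F statistic, and not a separate estimate from the libraries. Levels are CPM, which were not divided by gene length, so they are compared between samples and not between genes. Names came from the RefSeq table of assembly Ssal_v3.1 and from product names, and 44360 entries (54.4%) had a symbol. The 35 gene lists and the members named were chosen with earlier results of these data known. Named were the 12 highest and 12 lowest called genes (only 7 lower ones qualified) and the 6 of smallest p, with no overlap of the groups, a name and a mean of at least 1 CPM in the higher group, and up to 4 called and 4 defining members of each list. Alternatives were RLE scaling, DESeq2 1.42.0, no filter, the exact test, a replicate block, wider fits, limma on the log2 values and each library left out. The fit was tested on simulated data. Within groups, library pairs had Spearman correlations of 0.968 to 0.981 over genes, and no pair agreed within sampling noise. No sequence is shown. Some genes that met these rules are not reported here.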

Additional observations from a re-analysis of the deposited data

Results flagged for a closer look

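Groups of 4 libraries were tested for a single library far from the other 3, for the named genes and summed lists at T3 and at T1. Of 306 groups 28 (9.15%) had one. The cut-off gives about 1 in 20 for independent, normally distributed groups. These groups share libraries and the sums contain named genes, so the share cannot be read against that rate. In the T3 group the far library was replicate 4 for mmp14b (4.1 CPM, the others 10.2 to 10.5), pecam1a (4.95, the others 7.83 to 8.32), cd74a (224, the others 591 to 615), myd88 (1.86, the others 3.37 to 3.56) and stard4 (0.425, the others 0.626 to 0.659). The same library was far below the others in the summed matrix proteases (327 CPM) and antigen presentation genes (272 CPM), and above them in the summed steroid production genes (937 CPM, the others 891 to 898). Replicate 2 was high for esr2a (14 CPM), inhbab (9.58), smarca2 (7.76) and sema3b (17.1). Replicate 3 was high for adamts1 (1.88 CPM), plp1b (1.45) and the summed chemokines and receptors (74.7), and replicate 1 was high for esr1 (96.5 CPM) and low for aplp2 (7.80).

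In the T1 group the far library was replicate 1, on the low side, for LOC106565565 (0.981 CPM, the others 1.27 to 1.29), flt1 (0.135), itb2 (2.37), cd3e (0.135), mpeg1.1 (1.69), cd74a (117), tnfaip2b (0.338) and LOC106610175 (0.0677), and on the high side for acta2 (17.7 CPM). Replicate 4 was high for frem1a (7.44 CPM) and replicate 3 for LOC106602060 (0.0796 CPM, the others at 0).

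The change from T1 to T3 differed between ovary and liver in 4056 genes and between ovary and pituitary in 1210. On the log2 scale, with edgeR adjusted p, the ovary change was larger than that of liver by 1.3 for col4a1 (0.00998), 1.31 for col1a1a (0.022), 1.37 for hspg2 (0.000345), 2.32 for mmp9 (0.00917), 2.46 for LOC106610765 (3.56e-06), 1.07 for LOC106565061 (0.00531), 1.67 for pecam1a (0.000186), 1.98 for ptprc (0.00169), 1.4 for cd74a (0.00367), 2.72 for hsd3b1 (0.000183) and 1.99 for aplp2 (4.18e-05), and that of vsnl1b differed by -3.0 (0.000167). It was larger than that of pituitary by 1.57 for col4a1 (0.0101), 1.72 for col1a1a (0.0162), 2.57 for mmp9 (0.0262), 1.31 for LOC106610765 (0.0101), 1.21 for pecam1a (0.0129), 2.33 for ptprc (0.004), 1.57 for cd74a (0.00837) and 1.33 for aplp2 (0.00952), and that of vsnl1b differed by -3.20 (0.000935).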

How the results depend on the processing

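The direction of the 85 called genes followed singly for T3 against T1 was kept under all alternatives run, and the count of calls was not. These genes were called on the same libraries, so a kept direction was nearly fixed in advance. Of genes that were not called, figla, fshr, lcp2, mki67 and nobox changed sign when 1 library was left out. With all 8 libraries 1121 genes were called by edgeR's quasi-likelihood test. The count was 1154 with RLE scaling, 910 without the filter on low counts, 982 in a fit over all 16 ovary libraries, 1860 with DESeq2, 1983 with edgeR's exact test, 442 with limma on the deposited log2 values and 1765 by adjusted p alone, and it ran over 1 to 2380 when 1 library was left out, with the highest count without T3 replicate 4. For T3 against T2 the 2 calls became 51 with DESeq2, 57 with the exact test, 13 in the fit over 16 libraries and 4 with limma, and 0 to 10 when 1 library was left out. The ovary and liver difference gave 7034 genes by adjusted p alone instead of 4056. The ovary and pituitary difference gave 498 in a fit over all 48 libraries of the 3 tissues instead of 1210, and 692 to 2016 when 1 library was left out. The causes of these shifts were not tested. Of the 85 genes, limma lost 44, the fit over 16 libraries 29 and the fit without a filter 12. The replicate block lost all 85. Leaving out T3 replicate 4 lost 2, and leaving out any other single library lost 76 to 85. Low genes, such as those under 1 CPM at T1, rest on few reads.

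Replicate numbers are shared between time points in the labels. The paper states that the fish were sacrificed at sampling, so 1 number stands for different fish at T3 and T1. The number was not treated as pairing, and T3 and T1 libraries of 1 number did not deviate together (correlations of -0.11, 0.08, 0.03 and -0.02). Ovary and pituitary libraries of 1 number gave 0.13, 0.13, 0.14 and 0.09 at T3 and 0.12, 0.12, 0.11 and 0.08 at T1, and whether they came from the same fish is not given in the labels. With the replicate number as a block, which joins different fish across time points, 1 gene was called for T3 against T1 and 0 for T3 against T2. With time point and number together as the block, the differences of the ovary change from liver and from pituitary gave 3794 and 1056 genes.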
